A study of Mus musculus with 2 samples.

Results

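Retinoic acid, the active acid form of vitamin A, was followed through the transcripts of 9 genes that take up its precursor, make it, bind it and break it down: Stra6, Rdh10, Aldh1a1, Aldh1a2, Aldh1a3, Crabp1, Crabp2, Cyp26a1 and Cyp26b1. The rule names them by gene symbol and sets no threshold on a measured value, although earlier results of these arrays were known when the list was drawn up. All 12 probe sets that the array annotation pairs with these symbols were taken, out of 45101 probe sets and 18194 named genes. Total RNA of wild-type mouse embryos, taken whole at E14.5 (E for embryonic day, in midgestation), was isolated with RNAzol, labelled with biotin and hybridised to a pair of duplicate Affymetrix mouse arrays, on which a probe set of short oligonucleotides reports a transcript as a signal intensity on a linear scale. No treatment or mutant allele is named for these embryos, the paper gives NMRI and C57/BL6 as strains of its E14.5 embryos without saying which the arrays used, and neither source tells whether the duplicates came from separate embryos. With 1 condition there were no groups to compare and no test to run, and the spread shown is that between the duplicates, which may be technical.

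Cells obtain retinol from the blood, oxidise it to retinal and then to retinoic acid, and retinoic acid acts as a ligand of nuclear receptors that bind DNA in pairs with retinoid X receptors. Because synthesis and breakdown occur in different cells, the embryo contains regions rich and poor in retinoic acid, which pattern the hindbrain, limbs, eye, heart and kidney. RNA of the whole embryo does not resolve these regions. A low signal may come from few cells or from little RNA per cell, and the arrays cannot tell these apart.

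Each signal was read against a background bound, set at the 95th percentile of 81 chemosensory receptor probe sets (olfactory, vomeronasal and bitter taste) measured on the same array and taken as silent in the embryo. This bound came to 27.9 for array 1 and to 33.8 for array 2, well over the median receptor signals of 6.4 and 7.5. Genes with a probe set past it on array 1 and a probe set past it on array 2 were called above background. All 14 marker genes checked for liver, blood, muscle, cartilage, neurons, epidermis and endothelium were above background, as labelled for a whole embryo.

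Above background on both arrays were 7 of the 9 retinoic acid genes (77.8%), against 65.5% of all 18194 genes, and the exceptions were Stra6 and Cyp26a1. Genes of every step after retinol uptake were represented: Rdh10 for retinal, all 3 Aldh1a genes for the acid, both Crabp genes for its binding and Cyp26b1 for its breakdown. Genes with several probe sets pass more easily, and 7 of the 9 have only 1. Of these, 5 passed (71.4%), against 48.6% of the genes of the array with 1 probe set. By probe set, 8 of 12 passed on both arrays (66.7%, against 55.6% of all probe sets with 1 symbol), 2 passed on 1 array only (5.85% of all such probe sets did) and 2 on neither. With so few genes these shares describe the list and show no excess over the array. The response of a probe set to its transcript is not known, so signals of different probe sets were not ranked against each other.

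**Figure D1:**
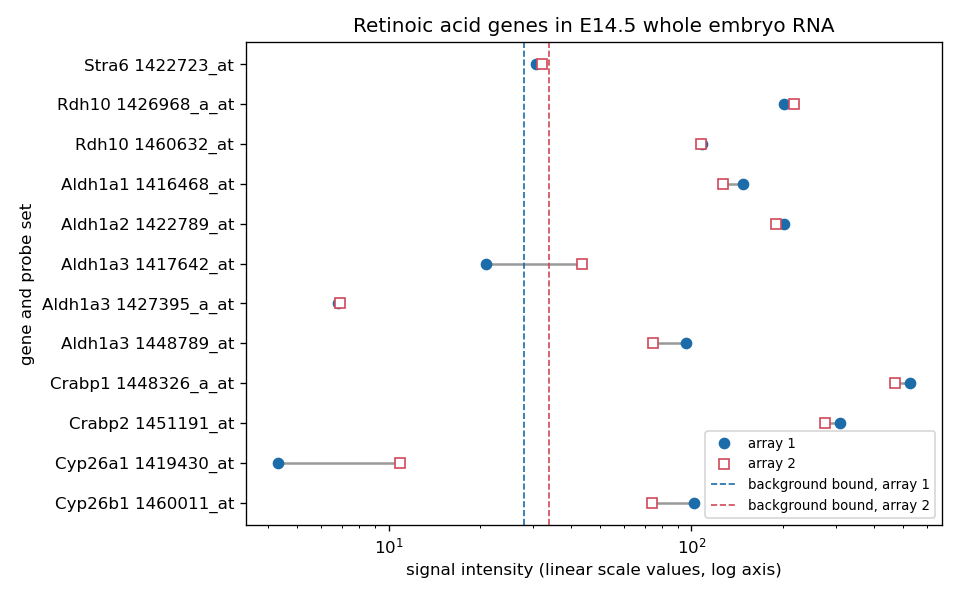
Signal intensity of each of the 12 probe sets on array 1 (filled circles) and array 2 (open squares) on a log axis, ordered from retinol uptake to breakdown, with the bound of each array as a dashed line. For 7 genes at least 1 probe set lies to the right of both lines, Stra6 lies between them, and Cyp26a1 lies to their left at 4.3 and 10.9. Of Aldh1a3, 1427395_a_at also lies to their left, and 1417642_at lies to their left on array 1 and to their right on array 2.

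Stra6 encodes the membrane receptor that passes retinol from retinol binding protein in the blood into cells, and is known from the pigment epithelium of the eye, the choroid plexus and the meninges. Its probe set 1422723_at gave 30.7 on array 1 and 32.0 on array 2. The signal was thus slightly higher on array 2, but that array had the higher bound, and Stra6 stood at 1.10 times the bound on array 1 and 0.947 times on array 2. Of the 81 receptor probe sets taken as silent, 2 were at or over Stra6 on array 1 and 6 on array 2. With the 90th percentile as the bound Stra6 passed on both arrays, and it is best described as at the limit of detection.

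Rdh10, the retinol dehydrogenase that makes most of the retinal needed by the embryo, was above background by both of its probe sets. Probe set 1426968_a_at had signals of 201.3 on array 1 and 218.7 on array 2, which are 7.21 and 6.47 times the bound. Probe set 1460632_at had 108.2 and 107.7, or 3.88 and 3.19 times the bound. The duplicates were close in both cases, and the lowest of the 4 signals was still over 3 times the bound of its array.

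The 3 retinaldehyde dehydrogenase genes carry out the step to retinoic acid and are known for separate territories: Aldh1a2 for mesoderm, meninges and the mesothelium, Aldh1a1 for the dorsal retina and parts of the brain and kidney, and Aldh1a3 for the ventral retina and nasal region. Aldh1a2 (1422789_at) had signals of 201.5 and 190.2, at 7.22 times the bound on array 1 and 5.63 times on array 2. Aldh1a1 (1416468_at) had 148.0 and 126.8, at 5.30 and 3.75 times the bound. Both genes were far from the bound on each array.

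Aldh1a3 was measured by 3 probe sets that did not behave alike. Probe set 1448789_at had 95.8 on array 1 and 74.7 on array 2 and carried the gene above background. Probe set 1417642_at had 21.0 and 43.5, below the bound on array 1 and above it on array 2, and so moved between the arrays in the opposite direction. Both are annotated to the same mRNA accession. The third, 1427395_a_at, annotated to another mRNA, had 6.8 and 6.9, and about as many receptor probe sets lay at or over it (40 and 42 of 81) as under it. The call for Aldh1a3 therefore rests on 1 of 3 probe sets.

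On the RefSeq map Aldh1a1 lies next to Aldh1a7 on chromosome 19, a close copy in rodents, and the arrays had signals of 156.4 and 156.5 for the probe set of Aldh1a7. Whether the probe sets of this pair cross-hybridise was not tested, and the signal of Aldh1a1 is uncertain to that extent. No probe set of the 9 genes is of the kinds whose names mark them as open to cross-hybridisation (ending in _s_at or _x_at).

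Crabp1 and Crabp2 encode the small cytosolic proteins that bind retinoic acid, of which CRABP2 is known to hand the ligand to its nuclear receptor and CRABP1 to hold it in the cytosol and favour its breakdown. Crabp1 (1448326_a_at) had signals of 527.8 on array 1 and 468.2 on array 2, at 18.9 and 13.9 times the bound. Crabp2 (1451191_at) had 308.8 and 275.8, at 11.1 and 8.16 times the bound. On both arrays each gene exceeded the signal of every receptor probe set, as did the other probe sets of the retinoic acid genes that passed on both. In both Crabp genes the duplicates lay within 1.13-fold of each other.

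Cyp26a1 and Cyp26b1 are cytochrome P450 enzymes that oxidise retinoic acid to inactive products, and the pair was divided by the bound. Cyp26b1, known from the limb bud, hindbrain and fetal testis, had signals of 102.1 on array 1 and 74.2 on array 2 (1460011_at), at 3.66 and 2.19 times the bound. Cyp26a1, known from the tail bud and as a gene switched on by retinoic acid itself, had 4.3 and 10.9 (1419430_at), and 48 of 81 receptor probe sets were at or over it on array 1 and 30 on array 2. A ratio of its signals is not meaningful at this level. Cyp26a1 was measured by a single probe set, so a transcript that this probe set reports poorly cannot be told from one that is scarce in the whole embryo.

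Retinoic acid receptors bind direct repeats of a hexamer, and the promoter windows of the pathway were searched for it because Cyp26a1 is a known retinoic acid responsive gene that was below background here. The hexamers searched, on both strands, were AGGTCA as the consensus and its variants (AGTTCA with a change in the third place, GGGTCA with a change in the first, and GGTTCA with both), in the same orientation with a spacer of 5 bases, in 32851 windows of 300 bases (250 before and 50 after each transcript start) from RefSeq on GRCm38.p6. The repeat occurred in 32 windows (0.0974%) of 31 genes. Windows were at hand for 6 of the 9 genes (10 windows, since Stra6 has 4 and Aldh1a1 has 2), and the repeat was in 1 of them, that of Cyp26a1. Aldh1a3, Crabp2 and Rdh10 had no entry. Of the receptor genes, Rarb, which encodes retinoic acid receptor beta and is itself a known retinoic acid responsive gene, held it too. Both windows are printed from their 5′ end in gene direction, with the hexamers of the repeat in capitals (in Cyp26a1 they lie on the opposite strand, and their complement is read). The window of Cyp26b1, which passed the bound and has none of these hexamers, is printed for comparison.
Cyp26a1, chr19:37697558-37697857, plus strand: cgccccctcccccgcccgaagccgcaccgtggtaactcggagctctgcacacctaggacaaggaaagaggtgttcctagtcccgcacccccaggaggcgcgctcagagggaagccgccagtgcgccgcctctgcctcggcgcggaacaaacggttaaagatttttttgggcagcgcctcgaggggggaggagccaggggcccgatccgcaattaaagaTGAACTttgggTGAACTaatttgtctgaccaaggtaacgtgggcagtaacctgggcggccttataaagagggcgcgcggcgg
Rarb, chr14:16575427-16575726, minus strand: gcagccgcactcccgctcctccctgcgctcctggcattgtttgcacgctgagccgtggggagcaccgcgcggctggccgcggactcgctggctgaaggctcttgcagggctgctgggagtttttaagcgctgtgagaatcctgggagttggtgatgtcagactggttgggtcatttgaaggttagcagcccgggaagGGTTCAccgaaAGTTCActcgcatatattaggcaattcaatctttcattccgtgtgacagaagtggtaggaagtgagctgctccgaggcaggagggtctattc
Cyp26b1, chr6:84593761-84594060, minus strand: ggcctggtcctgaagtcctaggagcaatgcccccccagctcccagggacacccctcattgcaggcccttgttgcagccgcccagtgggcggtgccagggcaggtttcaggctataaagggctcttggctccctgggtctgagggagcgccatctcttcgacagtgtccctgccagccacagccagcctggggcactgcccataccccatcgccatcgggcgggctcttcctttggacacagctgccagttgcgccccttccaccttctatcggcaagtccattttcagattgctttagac

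In Cyp26a1 the repeat spanned the bases from 32 to 16 before the start (chr19:37697776-37697792), and in Rarb those from 53 to 37 before it (chr14:16575513-16575529). Neither repeat holds the consensus AGGTCA, so both matches depend on the variants chosen for the search, and the shares of windows test nothing. The same hexamers with a spacer of 1 or 2 bases were in 0.222% and 0.268% of all windows and in 0 of the 10 windows of the retinoic acid genes. A single hexamer, which also counts those within a repeat, was in 43.7% of all windows and in 3 of these 10, those of Cyp26a1 and 1 each of Aldh1a1 and Stra6. The signals of the 2 genes with the repeat differed in their relation to the bound, with Cyp26a1 under it and Rarb above it at 58.1 on array 1 and 57.1 on array 2. A match of letters is a description of these windows and does not show that a receptor binds there.

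**Figure D2:**
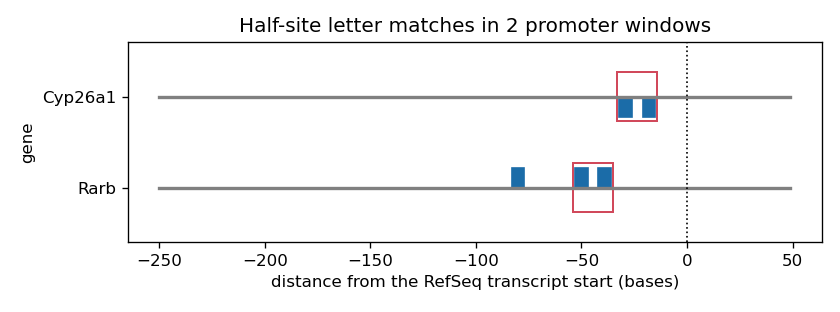
Position of the hexamers (blue, above the line on the gene's strand and below it on the opposite strand) and of the direct repeat with a spacer of 5 bases (red frame) in the promoter windows of Cyp26a1 and Rarb, in bases from the RefSeq transcript start. The repeat lies within 60 bases before the start in both windows, and Rarb has 1 further hexamer upstream of it.

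The duplicates were compared for the 8 probe sets of the retinoic acid genes that were above the bound on both arrays. The log2 signal on array 1 minus that on array 2 was centred on the median of 22138 probe sets above the bound on both arrays and set beside the 95th percentile of the absolute difference among probe sets of similar signal. This limit was 0.37 on the log2 scale (1.29-fold) for probe sets over 5 times the bound, 0.55 (1.47-fold) for 2 to 5 times and 0.65 (1.57-fold) for 1 to 2 times, and by construction 5.0% of all probe sets lie beyond it. None of these 8 probe sets (0 of 8) lay beyond. The widest was Cyp26b1, with a log2 difference of 0.47 (1.38-fold, higher on array 1), followed by 1448789_at of Aldh1a3 at 0.37 and Aldh1a1 at 0.23. Crabp1 stood at 0.18, Crabp2 at 0.17 and Aldh1a2 at 0.09. The probe sets of Rdh10 were at 0.02 (1460632_at) and -0.11 (1426968_a_at). The filter leaves out a probe set that is low on a single array, and so leaves out 1417642_at of Aldh1a3, whose signal was 2.07-fold higher on array 2. Without the filter and with a pseudocount of 16 its log2 difference was -0.66, beyond the limit of 0.55 found the same way. The duplicates of Aldh1a3 were thus within the limit by 1448789_at, though among the widest of the 8, and beyond it by 1417642_at.

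All but 1 of the 8 were on the positive side, 7 against a share of all probe sets that the centring fixes at 50.0%, with a median of 0.18. Each single difference is within the spread of the duplicates, and 8 probe sets of 7 genes on the same 2 arrays are not independent of each other. Of 54 probe sets of the other pathway genes above the bound on both arrays, 26 were higher on array 1 and 28 lower, with a median of 0.00. Markers of the tissues known for these genes gave signals, summed over their probe sets, of 509.0 on array 1 and 519.2 on array 2 for 5 mesothelial genes, 1323.5 and 1291.7 for 3 meningeal genes and 161.8 and 163.0 for 4 genes of retina and pigment epithelium. The meningeal sum was mostly that of Zic1, also known from the dorsal neural tube, with 756.8 and 718.4 by 1423477_at and 369.1 and 379.8 by 1439627_at, so it says little of the meninges. The mesothelial sum came mostly from the probe sets of Upk1b and Upk3b, and the eye sum had its highest signal from Dct, at 93.5 and 74.8. The sums are not centred and include probe sets under the bound. Over marker probe sets above it on both arrays, the median centred log2 difference was 0.01 for mesothelium, 0.07 for meninges and 0.02 for the eye. Of these markers 3 of 5, 3 of 3 and 2 of 4 were above background. Those that were not were the mesothelial Msln (18.9 and 14.6) and Lrrn4 (17.4 and 27.9), the pigment epithelium gene Rpe65 (8.0 and 14.1) and Rax (2.4 and 2.7). Their part in the signals of the retinoic acid genes was not tested.

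**Figure D3:**
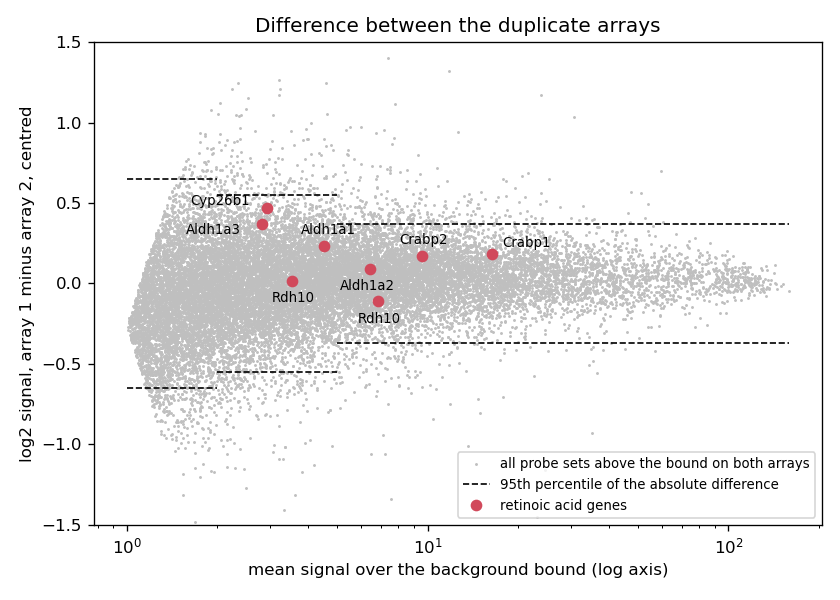
Centred log2 difference between the arrays (array 1 minus array 2) against the mean signal as a multiple of the bound (log axis) for probe sets above the bound on both arrays (grey; 4 lie outside the plotted range) and for those of the retinoic acid genes (red). Dashed lines mark the 95th percentile of the absolute difference in each signal range, and all 8 red points lie between them.

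The other genes of the retinoid pathway were above background in 30 of 48 measured cases (62.5%), a share near that of all genes (65.5%). Among the nuclear receptor genes 5 of 6 passed, with Rarg at 268.1 on array 1 and 296.4 on array 2 (1419415_a_at), Rxrb at 364.2 and 339.4, Rxra at 220.2 and 216.6 (1454773_at), Rxrg at 67.8 and 94.7, and Rarb. Rara did not, at 10.6 and 2.6 by its single probe set, although it is known as a widely transcribed receptor gene. A further probe set of Rarg, 1419416_a_at, had 32.0 on array 1 and 16.2 on array 2, below the bound on array 2. Of Rxra, 1425762_a_at passed at 137.7 and 97.8, and 1430497_at did not, at 3.8 and 1.3. All 3 measured genes of the steroid receptor coactivators (Ncoa1, Ncoa2 and Ncoa3) passed.

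Genes that carry retinol were divided. Rbp4, which encodes the retinol binding protein of the blood, had signals of 1215.9 on array 1 and 1225.0 on array 2, and Ttr, its partner in plasma, had 3332.4 and 2985.1 (1454608_x_at). Rbp3 passed by 1 of 2 probe sets at 46.7 and 49.6. Rbp2, a carrier of the gut, and Rbp7 stayed below the bound, as did Stra6l, a second retinol receptor gene of liver and gut, at 25.4 and 29.0. Of the storage and provitamin A genes 3 of 5 passed. Lrat, whose enzyme stores retinol as esters, did not. It had 7.5 on both arrays by 1421345_at, and 1.9 on array 1 and 4.4 on array 2 by 1444487_at.

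Of 16 measured genes of other enzymes that interconvert alcohols and aldehydes of the retinol type, 8 passed: Rdh5, Rdh11, Rdh13, Rdh14, Dhrs3, Dhrs4, Adh1 and Adh5. Dhrs3, which returns retinal to retinol and is known to work together with RDH10, had signals of 184.1 on array 1 and 181.2 on array 2. Adh1 had 396.7 and 447.9. Adh7, Rdh1, Rdh16 and Sdr16c5 were among the 8 that did not pass. Of genes for other synthesis and breakdown, Cyp1b1 passed at 71.7 and 79.7 (1416612_at) and Aldh8a1 at 37.1 and 53.5 (1427337_at). The further probe sets of Cyp1b1 were below the bound on both arrays, at 15.7 and 24.9 (1416613_at) and 2.7 and 21.3 (1432081_at). The other probe set of Aldh8a1, 1427336_at, had 54.2 and 32.5, below the bound on array 2. Cyp2c39 did not pass, at 2.7 and 3.3. Fabp5, a fatty acid carrier that can also take retinoic acid to another nuclear receptor, had 2786.2 and 2767.0 (1416021_a_at).

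Genes known to respond to retinoic acid passed in 7 of 10 cases (70.0%), near the 65.5% of all genes. Hoxb4, Meis1, Meis2, Tgm2 and Nrip1 have several probe sets, so they pass more easily than genes with 1. The homeobox genes Meis1 (205.4 on array 1 and 205.6 on array 2, 1450992_a_at) and Meis2 (423.4 and 396.4, 1457632_s_at), the transglutaminase gene Tgm2, the receptor cofactor gene Nrip1, Hoxb4, Dhrs3 and Rarb were above background. Cdx1 (0.9 and 1.1), Hoxb1 (11.7 and 16.6) and Stra8 (15.2 and 26.3), each measured by a single probe set, were not. These genes have other regulators, and retinoic acid itself was not measured.

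**Figure D4:**
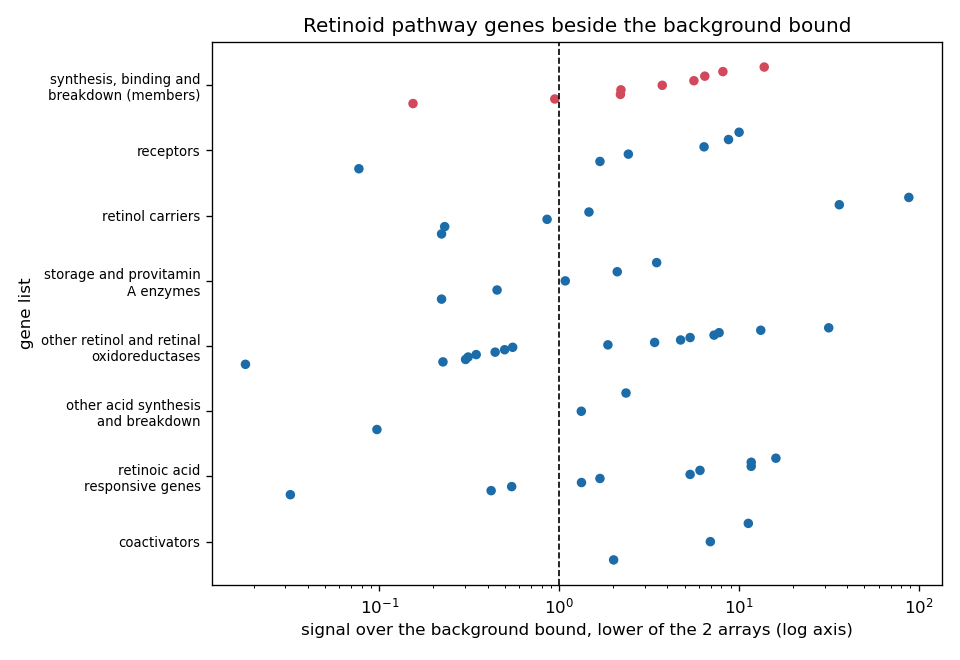
Signal of each measured gene as a multiple of the bound (the lower of the 2 arrays, log axis) in 8 gene lists, shown by the probe set with the highest such value. The bound is dashed, and 7 of the 9 retinoic acid genes (red) lie to its right; vertical position within a list has no meaning.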

How the data were processed

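The authors processed the array scans with GCOS 1.3, named in the submitters' processing notes, and the deposited values are signal intensities on a linear scale, a single value for each probe set of each array. Both arrays had a mean of 100 after trimming of 2% at each end. Detection calls were not used here, so the receptor bound stood in for the present calls of the paper's methods.

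Probe sets were named from the platform annotation, and symbols were updated by gene identifier with the GRCm38.p6 gene table of RefSeq, which served for names and neighbours alone (34754 of 34958 probe sets with 1 symbol matched). Those with several symbols (932) or not listed (9211) named no gene. All 9 genes are described with every probe set, and other genes come from fixed lists of the pathway, of which 7 of 55 names were not analysed here. The 9 genes and the lists were chosen with earlier results of these data known, although no rule for them uses a measured value. A p-value was not given for any result, because 1 condition offers no contrast, and the number of arrays limits the precision.

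The bound was also set at the 90th percentile, the 99th percentile and the array median. Further alternatives were removal of probe sets ending in _s_at or _x_at, each array alone, and 1 probe set passing on both arrays; for differences, no centring, quantile normalization, a pseudocount of 16 with no filter, and the 99th percentile bound. The steps were tested on simulated arrays whose expressed genes were all set well over the bound, so calls of genes expressed near the bound were not tested. Python 3.11.15 was used with pandas 2.3.3, numpy 2.4.6, scipy 1.17.1 and matplotlib 3.10.9. Sequences are RefSeq promoter windows of GRCm38.p6.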

Additional observations from a re-analysis of the deposited data

How the results depend on the processing

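The count of 7 of 9 genes above background was unchanged with the 99th percentile bound, the array median as the bound, removal of probe sets ending in _s_at or _x_at, and the demand that 1 probe set pass on both arrays. It was 8 with the 90th percentile bound, and 7 to 8 with either array alone. In each case of 8 the added gene was Stra6. The count of probe sets ranged from 8 to 9 and that of other pathway genes from 29 to 31. All 56 counts of single lists were within 1.5 times their value, a wide margin for lists this short. The storage and provitamin A list fell from 3 to 2 with the 99th percentile bound, which Bco1 did not pass. It also fell to 2 on removal of probe sets ending in _s_at or _x_at, where Dgat1 was lost. No probe set of the 9 genes was beyond the spread of the duplicates under 3 of 4 alternatives. Without a filter and with a pseudocount of 16 the count was 1, namely 1417642_at of Aldh1a3 at -0.66, which lies below the bound on array 1 and otherwise does not enter. Under quantile normalization 20 of 24 signals moved by less than the SD of the duplicates, and the others were those of Stra6 and of 1427395_a_at of Aldh1a3, whose duplicates nearly coincide. Signals near the bound, above all Stra6, carry no firm call. The difference between the arrays cannot be had from 1 array. No paired analysis was possible because there is 1 group.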

Other observations

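Relatives of the retinoic acid genes outside the pathway were described as well. Of 7 other aldehyde dehydrogenase genes 6 were above background, with the mitochondrial Aldh2 at 613.8 on array 1 and 655.5 on array 2 (1448143_at) and Aldh9a1 at 749.1 and 842.4 (1436689_a_at). Aldh3a1, known from the adult cornea and stomach, was not, at 10.1 and 9.4. Of 7 fatty acid binding protein genes, which share the fold of the Crabp proteins, 4 passed. Fabp7, a gene of radial glia in the brain, had 564.5 and 441.5, and the liver gene Fabp1 had 234.7 and 282.4 (1448764_a_at). The gut genes Fabp2 and Fabp6 and the myelin gene Pmp2 did not pass.

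Of the 31 genes whose promoter window held the direct repeat with a spacer of 5 bases, 11 had a probe set with 1 symbol. They include Cyp26a1, whose signal below background prompted the search, so no share of them is set against that of all genes. Above background were 4 of the 11: Rarb, the embryonic globin gene Hbb-y, Blvrb and Ppbp. Cyp26a1, Cfap45, Gm14133, Prokr2, Prss27, Syndig1 and Tnfsf13b were not. These genes were named after their values were seen. The repeat with a spacer of 1 base was in the windows of 71 genes. Of these Bco1, whose enzyme cleaves beta-carotene to retinal, is the only gene named here. Its repeat lies from 56 to 44 bases before the start, and binding of a receptor there was not tested. Bco1 had signals of 36.0 on array 1 and 36.6 on array 2, close to the bound.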
